A study of Mus musculus with 6 samples.

Results

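Myosin heavy chains form the thick filaments of skeletal muscle, and the 6 isoform genes described here were chosen by name, out of 20950 entries in the table: Myh3 (embryonic), Myh8 (perinatal), Myh1 (adult fast IIx), Myh2 (adult fast IIa), Myh4 (adult fast IIb) and Myh7 (slow). All 6 were found in the table. RNA came from C2C12 cells, an established line of mouse myoblasts (muscle precursor cells) that stop dividing and fuse into multinucleated myotubes once the serum in the medium is lowered. There were 6 libraries in 5 conditions. Growing cells were kept in 10% FBS (fetal bovine serum). Differentiating cells were kept in 2% HS (horse serum) or in 0.2% FBS, each with or without added exosomes, the small vesicles isolated from FBS, in the amount that 10% FBS holds. Every condition had 1 library except 0.2% FBS + exosome, which had 2 (replicates 1 and 2). All libraries come from 1 cell line, and nothing in the sources used here says whether the 2 replicates were separate cultures, so the p-values below measure only the spread between these libraries, which may be technical. The design asks how serum reduction and serum exosomes bear on differentiation, and the comparisons below give the answer for the myosin heavy chain transcripts alone.

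Each myosin heavy chain has a motor head, which hydrolyses ATP and pulls on actin, and a coiled-coil rod, through which the molecules pack into the filament. Muscle cells exchange isoforms as they mature: embryonic Myh3 and perinatal Myh8 appear during development and regeneration, and they give way to slow Myh7 or to the fast Myh2, Myh1 and Myh4, which differ in shortening speed. Early C2C12 myotubes are known for the embryonic form. The staining of differentiated cultures with an antibody to myosin heavy chain is a usual readout of myotube formation, and it does not tell all isoforms apart.

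On mm10, with GENCODE vM21 gene models, Myh3 (chr11:67078300-67102291, 41 exons), Myh2 (chr11:67171027-67197517, 40 exons), Myh1 (chr11:67200052-67224575, 40 exons), Myh4 (chr11:67238029-67260446, 39 exons) and Myh8 (chr11:67277124-67308634, 40 exons) lie in a row on the plus strand of chromosome 11. Myh7 (chr14:54970684-54994626, 41 exons) lies on the minus strand of chromosome 14. The windows of 250 bases before each start site, taken from RefSeq (GRCm38.p6, the same assembly), were searched for short matches on both strands. A 14-base stretch was identical before Myh1, Myh2, Myh4 and Myh8. It was found by comparing those promoters, and 4 of the 32851 promoter windows of the table held it on either strand (0.0122%). The matches lie at −160 to −147 before Myh1, −125 to −112 before Myh2, −158 to −145 before Myh4 and −54 to −41 before Myh8. The MEF2 box, the A/T-rich site of the muscle transcription factors MEF2A, MEF2C and MEF2D, lies upstream of that stretch in Myh1 (−211 to −202), Myh4 (−182 to −173) and Myh8 (−99 to −90). No match to these letters was found in the windows of Myh2, Myh3 and Myh7, while 2.92% of all windows held one. The 100 bases that hold the stretch are shown for those 4 genes on the plus strand, with the MEF2 box, where there is a match, and the 14-base stretch in capitals. They cover chr11:67199866-67199965 (Myh1), chr11:67237578-67237677 (Myh4), chr11:67276994-67277093 (Myh8) and chr11:67170826-67170925 (Myh2).
Myh1: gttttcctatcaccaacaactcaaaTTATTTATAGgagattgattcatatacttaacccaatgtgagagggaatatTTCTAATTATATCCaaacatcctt
Myh4: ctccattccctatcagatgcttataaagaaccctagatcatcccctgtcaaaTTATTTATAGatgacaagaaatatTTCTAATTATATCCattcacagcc
Myh8: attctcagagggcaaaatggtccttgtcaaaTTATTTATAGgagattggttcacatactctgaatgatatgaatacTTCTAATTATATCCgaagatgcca
Myh2: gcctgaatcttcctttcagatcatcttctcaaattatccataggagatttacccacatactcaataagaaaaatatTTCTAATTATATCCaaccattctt

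The window before Myh3, the isoform with the highest level, is shown whole (chr11:67078050-67078299, plus strand) as the contrast without either match. Its capitals mark the E-box CANNTG, the core bound by MyoD and myogenin.
Myh3: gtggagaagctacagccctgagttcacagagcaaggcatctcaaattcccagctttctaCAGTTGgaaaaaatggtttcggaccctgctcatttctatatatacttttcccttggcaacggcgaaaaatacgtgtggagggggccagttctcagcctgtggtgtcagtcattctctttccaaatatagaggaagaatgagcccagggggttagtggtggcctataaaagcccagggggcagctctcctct
An E-box was also found before Myh4 (−221 and −67), Myh8 (−32) and Myh7 (−106, counted from position 54994626, one of its 2 RefSeq start sites). The window of the other Myh7 start site, position 54994549, held a further E-box at −62. None was found before Myh1 and Myh2. Since 66.2% of all windows held at least 1 E-box, a match is common. The letters TATAAA, the TATA box, were found near the start of Myh3 (−29), Myh1 (−32) and Myh4 (−31), and 12.4% of all windows held them on either strand. The MEF2 boxes of Myh1, Myh4 and Myh8 each hold these letters on the reverse strand, so these matches overlap. The search also covered the M-CAT motif CATTCC and the CArG box. M-CAT was found before Myh1 (−16), Myh4 (−231) and Myh7 (−201, from position 54994626), and 12.6% of all windows held it. A CArG box was found before Myh4 alone (−104), and 1.47% of all windows held one. These matches describe the sequence and do not show that a factor binds there.

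**Figure D1:**
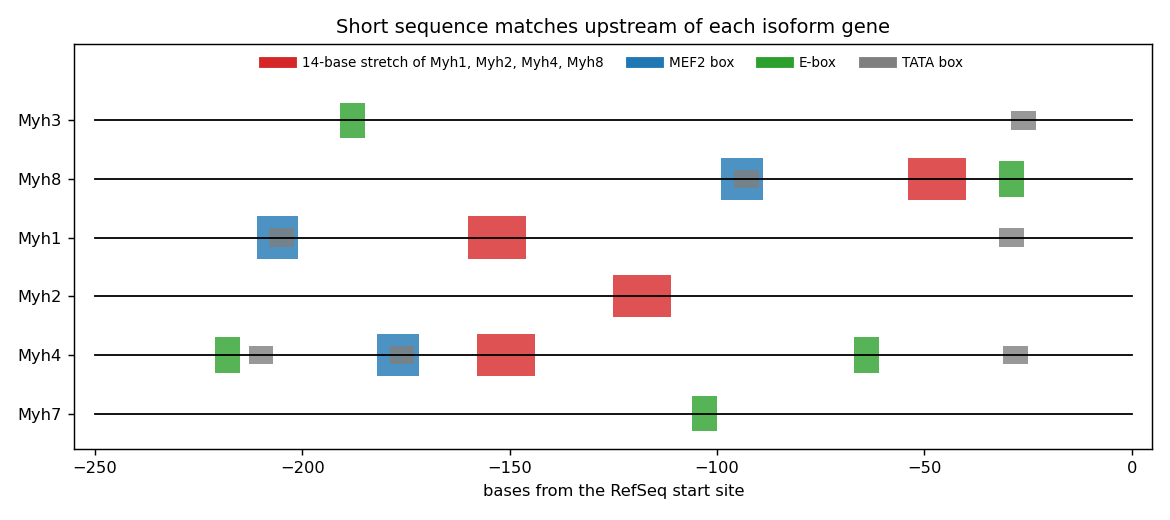
Positions of the 14-base stretch, MEF2 boxes, E-boxes and TATA boxes in the 250 bases before the RefSeq start site of each gene. The x axis gives the distance from the start in bases, with 1 line per gene. The 14-base stretch (red) is present in 4 of the 6 genes and the MEF2 box (blue) in Myh1, Myh4 and Myh8, at different distances from the start.

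The isoforms are similar in sequence, and the reads were 75 bases long, so reads from a stretch that 2 genes share could not be told apart. Of all 75-base stretches of its transcript, Myh3 shared 1.86% with another annotated gene, Myh4 9.68%, Myh8 12.9%, Myh7 15.3%, Myh2 16.3% and Myh1 16.6%. Every shared stretch of Myh7 is shared with the cardiac isoform Myh6, and Myh1 and Myh2 share 755 stretches with each other, including 1 identical run of 268 coding bases. Myh2 stood at only 3.14% to 5.81% of the Myh1 level, so that a small number of misplaced Myh1 reads would weigh on its value. Antisense genes overlap Myh1, Myh2 and Myh7, and whether reads were counted by strand is not given in the sources used here.

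The values are FPKM, reads per kilobase of transcript scaled to the mapped reads of the library. This puts genes of different length and libraries of different depth on 1 scale, but comparisons between libraries still depend on that scaling. Estimated from the spacing of low values, the depths lay between 33700000 and 39500000 reads per library. At these depths Myh2 rests on 55 to 397 reads per library and every other isoform on at least 890. All 9 myogenic markers were present. Of the 19 markers of other cell types 17 were in the table, and they summed to between 3.36 and 6.48 FPKM, with Kdr, Hbb-bs, Alb and Myl7 at 0 in every library. The cardiac markers among them (Nppa, Tnni3 and Myl7) summed to 3.38 FPKM in 10% FBS, 3.43 in 2% HS, 4.80 in 2% HS + exosome and 3.64 in 0.2% FBS, against 1.23 and 2.23 in 0.2% FBS + exosome. They were lower with exosomes in 0.2% FBS, as the isoforms were, but replicate 1 was the lower replicate for them and replicate 2 for the isoforms. Their part in the isoform results was not tested.

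Embryonic Myh3 was the main isoform in every library. It stood at 738 FPKM in 10% FBS, 1575 in 2% HS, 1566 in 2% HS + exosome, 1604 in 0.2% FBS, and 713 and 404 in replicates 1 and 2 of 0.2% FBS + exosome. The 3 libraries near the top lay within 37.9 FPKM of each other, and the other 3 all lay below them. Among the 20950 entries Myh3 ranked 28th in 2% HS and 183rd in replicate 2 of 0.2% FBS + exosome. The growing culture thus already held embryonic myosin mRNA, and it held Myog, which codes for the differentiation factor myogenin, at 512 FPKM. In bulk RNA such as this, fewer cells that express myosin and less myosin mRNA per cell cannot be told apart, which holds for every level given here.

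Perinatal Myh8, the form that follows Myh3 in developing muscle, stood at 9.88 FPKM in 10% FBS, 13.2 in 2% HS, 28.8 in 2% HS + exosome, 31.8 in 0.2% FBS, and 8.64 and 4.50 in 0.2% FBS + exosome. Its level in 2% HS lay near that of growing cells, unlike Myh3, and only 2% HS + exosome and 0.2% FBS were high. Myh8 had a 7.08-fold range over the libraries, against 3.97-fold for Myh3.

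The fast isoforms were much lower than Myh3. Myh1, the IIx form, stood at 12.2 FPKM in 10% FBS, 35.8 in 2% HS, 27.4 in 2% HS + exosome, 35.0 in 0.2% FBS, and 11.8 and 8.79 in 0.2% FBS + exosome. Myh4, the IIb form of the fastest fibres, stood at 10.1 FPKM in 10% FBS, 23.2 in 2% HS, 24.0 in 2% HS + exosome, 35.0 in 0.2% FBS, and 7.87 and 4.54 in 0.2% FBS + exosome. Both were high in the same 3 libraries as Myh3, but the order among these differed: 2% HS was the highest for Myh1 and 0.2% FBS for Myh4. Myh2, the IIa form, was the lowest isoform in every library. It stood at 0.479 FPKM in 10% FBS, 1.36 in 2% HS, 1.60 in 2% HS + exosome, 1.84 in 0.2% FBS, and 0.395 and 0.276 in 0.2% FBS + exosome. It had the same 3 libraries on top, and its mean of 0.992 FPKM fell short of the 1 FPKM required for the tests, so it entered no main test.

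Slow Myh7, which is also the β-myosin of the heart ventricle, stood at 24.7 FPKM in 10% FBS, 25.9 in 2% HS, 41.0 in 2% HS + exosome, 55.3 in 0.2% FBS, and 22.8 and 18.0 in 0.2% FBS + exosome. Its level in 2% HS was close to that of growing cells, as for Myh8. Myh7 came second after Myh3 in every library except 2% HS, where Myh1 was second.

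**Figure D2:**
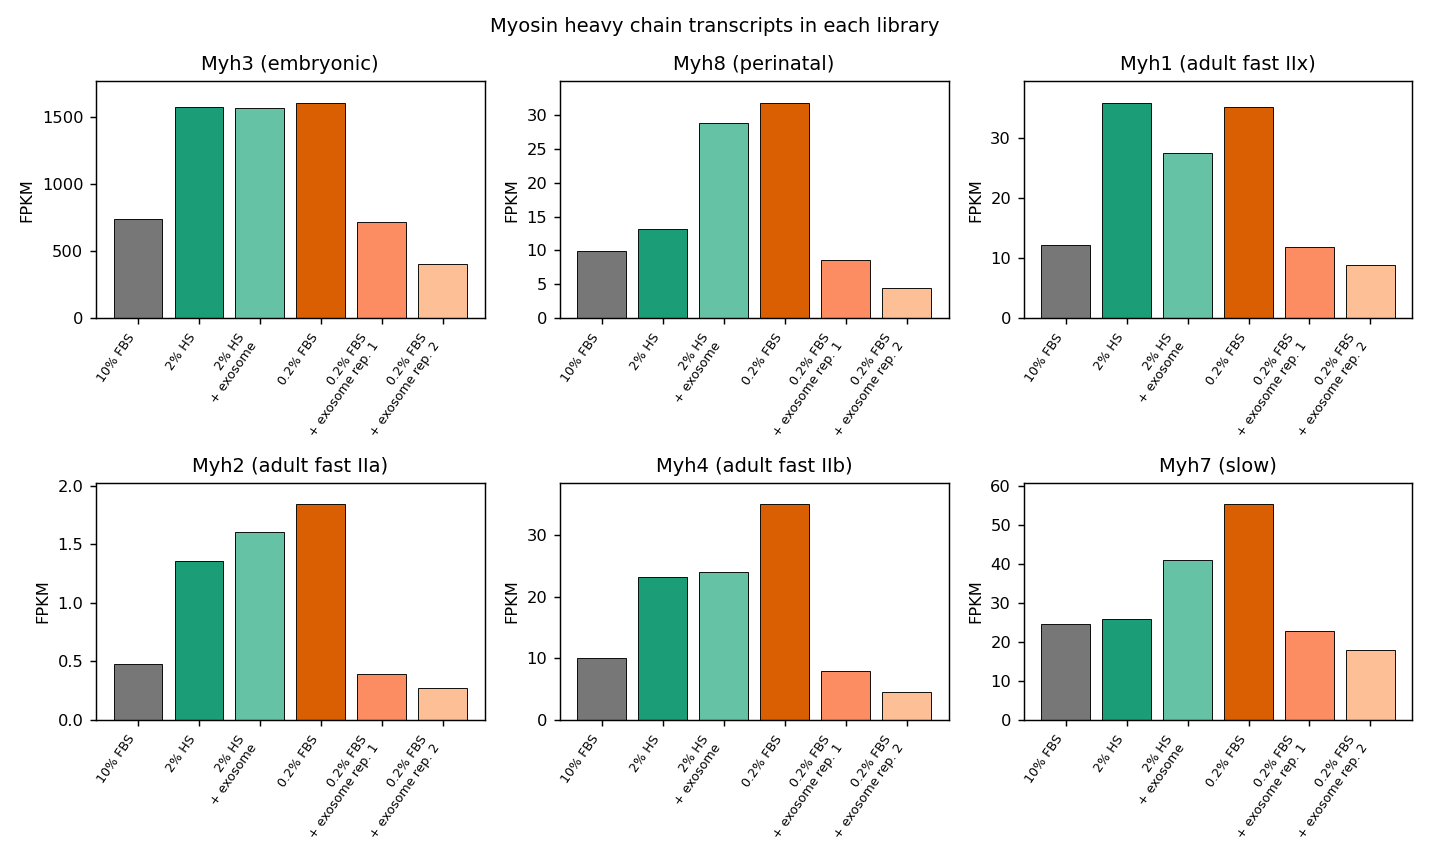
FPKM of each isoform in each of the 6 libraries, 1 bar per library, with a y axis from 0 of its own for each gene. For all 6 isoforms the 10% FBS library and both 0.2% FBS + exosome libraries lie below the other 3, and Myh8 and Myh7 in 2% HS lie close to their level in 10% FBS.

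The order of the libraries was alike for all 6 isoforms at its lower end. Replicate 2 of 0.2% FBS + exosome was the lowest, replicate 1 the next and 10% FBS the third. The isoforms differed in how far the replicates lay apart: replicate 2 held 0.521 times the Myh8 level of replicate 1, 0.567 times that of Myh3, 0.577 times that of Myh4, 0.699 times that of Myh2, 0.748 times that of Myh1 and 0.790 times that of Myh7. At the upper end, 0.2% FBS was the highest for Myh3, Myh8, Myh2, Myh4 and Myh7. The 3 upper libraries spanned 0.03 on the log2 scale for Myh3, against 1.07 for Myh7 and 1.21 for Myh8. The next library after 0.2% FBS was 2% HS + exosome for Myh8 (0.905 times the level), Myh2 (0.865 times), Myh7 (0.741 times) and Myh4 (0.686 times).

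Serum reduction was compared with growth, 1 library against 1, so the differences have no replicate check. They were not tested. They are given on the scale of log2(FPKM + 1), with the limit of 1 in either direction that the study used. In 0.2% FBS against 10% FBS all 6 isoforms were higher, and 5 passed the limit, beside 1.79% of the 10731 genes that averaged 1 FPKM or more over the libraries. At any size, 38.6% of those genes were higher. The log2 differences were 1.70 for Myh4, 1.59 for Myh8, 1.45 for Myh1, 1.13 for Myh7, 1.12 for Myh3 and 0.94 for Myh2, the isoform below the limit, which passed with a pseudocount of 0.1 (1.75). On the scale of FPKM itself the ratios ran from 2.17 for Myh3 to 3.85 for Myh2. The median over the 6 isoforms was 1.29, against −0.09 over all genes tested.

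In 2% HS against 10% FBS, Myh1 (1.48), Myh4 (1.13) and Myh3 (1.09) passed the limit, again beside 1.79% of all genes. Myh2 differed by 0.68 (1.34, past the limit, with a pseudocount of 0.1), Myh8 by 0.39 and Myh7 by 0.06. Thus the adult fast isoforms and Myh3 stood at 2.14 to 2.93 times the level of growing cells, whereas perinatal Myh8 stood at 1.34 times and slow Myh7 at 1.05 times that level. The median over the isoforms was 0.88, beside −0.08 over all genes.

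The differentiation media were then set against each other. In 0.2% FBS against 2% HS, Myh8 (1.21) and Myh7 (1.07) passed the limit, beside 0.233% of all genes. Their FPKM in 0.2% FBS were 2.41 and 2.14 times those in 2% HS. Myh3 (0.03) and Myh1 (−0.03) differed little between the media, and Myh2 (0.27) and Myh4 (0.57) lay between these and the limit. The median was 0.42 over the isoforms and −0.01 over all genes. The 0.2% FBS library and the 2% HS library each enter more than 1 of these comparisons, so the comparisons are not independent of each other.

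Exosomes added to 0.2% FBS went with lower levels of every isoform. All 6 passed the log2 limit of −1 in each exosome library, beside 1.61% of the genes tested. With values under 1 FPKM raised to 1 in place of the added 1, 5 passed and Myh2 (−0.88) did not. Myh4 stood at 0.225 and 0.130 times the level of the 0.2% FBS library in replicates 1 and 2, and Myh8 at 0.271 and 0.141 times. Myh2 stood at 0.214 and 0.150 times and Myh1 at 0.336 and 0.251 times. The ratios were 0.444 and 0.252 for Myh3 and 0.412 and 0.325 for Myh7. Every isoform was lower in both exosome libraries than in the 0.2% FBS library, and replicate 2 was lower than replicate 1 for each. Of all genes tested, 27.5% were lower in both exosome libraries at any size. On the log2(FPKM + 1) scale the mean changes were −2.36 for Myh4 (SD 0.48, n = 2), −2.17 for Myh8 (SD 0.57), −1.69 for Myh1 (SD 0.27), −1.58 for Myh3 (SD 0.58), −1.41 for Myh7 (SD 0.23) and −1.09 for Myh2 (SD 0.09). That scale understates the change of Myh2, whose levels are near the added 1. The median was −1.63 over the isoforms, while the median over all genes was 0.14 (0.04 after scaling the libraries to 1 upper quartile).

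The change was also tested with limma on log2(FPKM + 1), with Benjamini-Hochberg adjustment over 10731 genes. The fit had 1 mean per condition and estimated the spread from the replicated condition alone, with 1 residual degree of freedom. limma then drew the spread of each gene toward a trend over all 10731 genes. Each SE below is thus smaller than the SD of the 2 replicates of that isoform, and the calls lean on spread shared across genes. The 5 isoforms tested were above 1 FPKM in every library. Of these, 4 were lower at an adjusted p under 0.05, beside 4.32% of all genes that were called lower. The limma adjusted p was 0.00647 for Myh4 (SE 0.26), 0.00655 for Myh1 (SE 0.19), 0.00764 for Myh8 (SE 0.29) and 0.00764 for Myh7 (SE 0.19). Myh3 did not pass (SE 0.46, limma adjusted p = 0.0586), but it passed after upper-quartile scaling and in limma without the mean-variance trend. The calls rest on the filter at 1 FPKM: with all 16450 entries above 0 in the limma fit, no isoform and no gene passed, and the adjusted p was 0.243 to 0.329 for the 6 isoforms, although 3121 genes (19.0%) had an unadjusted p under 0.05. With all values under 1 FPKM raised to 1 in place of the added 1, no isoform passed either.

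Reference transcripts were not lower in the exosome libraries of 0.2% FBS. Actb, which codes for cytoplasmic β-actin, stood at 721 FPKM in 0.2% FBS and at 1043 and 1088 with exosomes, and Rpl13a, a ribosomal protein gene, stood at 618, and at 622 and 875. Divided by Rpl13a, an alternative added after seeing the data, all 6 isoforms still passed the limit, with log2 changes from −1.19 for Myh2 to −2.58 for Myh4. How many of all genes passed under this division was not counted, so this count has no share to set beside it. After upper-quartile scaling the isoform count was also 6, beside 212 of the 10731 genes lower (173 without that scaling). The part of Actb was not tested.

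Exosomes added to 2% HS did not go with a general drop. Of the 6 isoforms, 0 passed the limit downward (0.298% of all genes did) and Myh8 passed it upward (0.354% of all genes did). Myh8 stood at 28.8 FPKM with exosomes against 13.2 without, a ratio of 2.18 and a log2 change of 1.07 in 1 library against 1, without a test. Myh7 stood at 1.58 times its level without exosomes (log2 change 0.64), Myh2 at 1.17 times (0.14) and Myh4 at 1.03 times (0.04). Myh3 changed by −0.01, and Myh1, at 0.768 times, by −0.37. With exosomes, Myh8 in 2% HS reached 0.905 times and Myh7 0.741 times the level of the 0.2% FBS library. The median over the isoforms was 0.09 and over all genes −0.04. Divided by Rpl13a, the Myh8 change (0.92) no longer passed the limit.

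**Figure D3:**
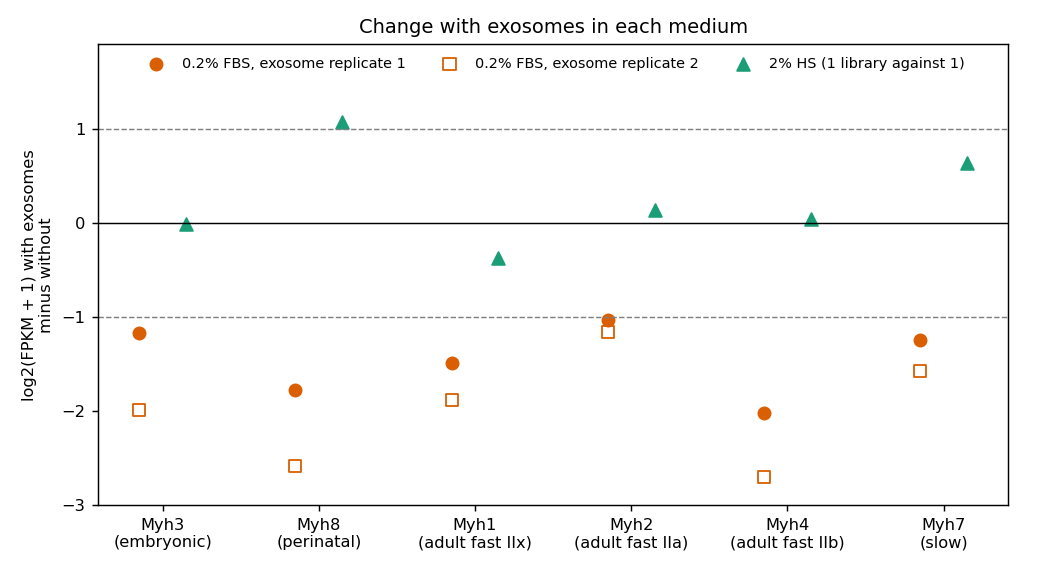
Difference in log2(FPKM + 1) between libraries with and without exosomes for each isoform, with 1 circle or square for each exosome library in 0.2% FBS and a triangle for the single comparison in 2% HS (dashed lines: the limit of 1). All points of 0.2% FBS lie below −1, between −1.03 and −2.70, and the points of 2% HS lie between −0.37 and 1.07.

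The difference between the media was tested itself, as the exosome effect in 0.2% FBS minus that in 2% HS. It was −3.24 for Myh8 (SE 0.44, limma with Benjamini-Hochberg adjustment, adjusted p = 0.0202), −2.40 for Myh4 (SE 0.39, limma adjusted p = 0.0333) and −2.05 for Myh7 (SE 0.29, limma adjusted p = 0.0230). These 3 of the 5 isoforms tested passed, beside 0.867% of all genes called in this direction. Myh1 (−1.32, SE 0.30, limma adjusted p = 0.0744) and Myh3 (−1.57, SE 0.71, limma adjusted p = 0.268) did not pass, and Myh2 (−1.23, or −2.39 with a pseudocount of 0.1) was not tested. Myh8, Myh2, Myh4 and Myh7 were lower in both exosome libraries in 0.2% FBS and higher in 2% HS, as were 1293 of the 10731 genes tested, but the change of Myh4 in 2% HS was only 0.04 and turned to −0.11 when divided by Rpl13a. The standard errors assume that the single libraries vary like the replicated condition. No isoform passed when limma was fitted without the filter (adjusted p 0.359 to 0.512), with values under 1 FPKM raised to 1, or without the mean-variance trend.

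A single exosome effect common to both media was also fitted with limma, over the 5 differentiating libraries with a term for the medium. It was −1.33 for Myh4, −1.12 for Myh1, −0.90 for Myh3, −0.78 for Myh8 and −0.53 for Myh7. In limma with Benjamini-Hochberg adjustment no isoform passed (adjusted p = 0.705 to adjusted p = 0.738), and 0 of 10731 genes did. Myh1 and Myh4 were among the 709 genes (6.61%) with an unadjusted p under 0.05. The error of this fit also takes in the difference between the media in the exosome effect. Without replicate 2 the effects were −0.99 for Myh4, −0.93 for Myh1, −0.59 for Myh3, −0.35 for Myh8 and −0.30 for Myh7, and Myh4 was no longer under an unadjusted p of 0.05. Without replicate 1 Myh3 too was under that p, which made 3 isoforms in place of 2.

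Cells in 0.2% FBS + exosome were next set against growing cells in 10% FBS. Replicate 1 lay near the growing culture, at 0.966 times its level for Myh3, 0.965 for Myh1, 0.920 for Myh7, 0.874 for Myh8, 0.825 for Myh2 and 0.780 for Myh4. Replicate 2 lay lower, at 0.727 times for Myh7, 0.721 for Myh1, 0.577 for Myh2, 0.548 for Myh3, 0.455 for Myh8 and 0.450 for Myh4. All 6 isoforms were thus below the growing culture in each library, as were 31.0% of all genes, and 0 passed the limit in each (0.00932% of all genes did). The mean log2 differences were −0.66 for Myh4, −0.58 for Myh8, −0.46 for Myh3, −0.28 for Myh7, −0.24 for Myh1 and −0.15 for Myh2. In limma with Benjamini-Hochberg adjustment 0 isoforms of the 5 tested passed (adjusted p = 0.380 to adjusted p = 0.758), and 1, Myh4, had an unadjusted p under 0.05, as did 11.5% of all genes.

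Since FPKM is per length, the isoforms can be added up. The summed FPKM of the 6 was 795.1 in 10% FBS, 1675 in 2% HS, 1689 in 2% HS + exosome, 1763 in 0.2% FBS, and 764.3 and 440.5 in 0.2% FBS + exosome. Myh3 held 91.0% to 94.1% of this sum, the lowest share being that in 0.2% FBS and the highest that in 2% HS. The adult fast isoforms together held 2.62% to 4.07%. A share this near the whole has little room to move, and on the log2 scale the ratio of Myh8 to Myh3 ran from −6.90 in 2% HS to −5.66 in 0.2% FBS.

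The mix of the other 5 isoforms was taken apart from Myh3. In it, Myh7 held 43.1% of the sum in 10% FBS, 26.0% in 2% HS, 33.4% in 2% HS + exosome, 34.8% in 0.2% FBS, and 44.3% and 49.8% in 0.2% FBS + exosome. The slow share was thus highest in the 3 libraries with the lowest totals. Myh1 held 35.9% in 2% HS and 21.2% to 24.4% in the other 5 libraries. Myh8 held 23.5% in 2% HS + exosome and 20.0% in 0.2% FBS, against 13.3% in 2% HS and 12.5% in replicate 2 of 0.2% FBS + exosome. Myh4 held 12.6% to 23.4% and Myh2 0.765% to 1.37%. In the replicated condition the shares of Myh7 and of Myh8 lay 44.3% against 49.8% and 16.8% against 12.5%, a gap as wide as several of those between conditions. The ratio of Myh7 to Myh1 on the log2 scale turned from −0.47 in 2% HS to between 0.58 and 1.03 in the other 5 libraries, and that of Myh4 to Myh1 ran from −0.95 in replicate 2 of 0.2% FBS + exosome to 0.00 in 0.2% FBS.

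**Figure D4:**
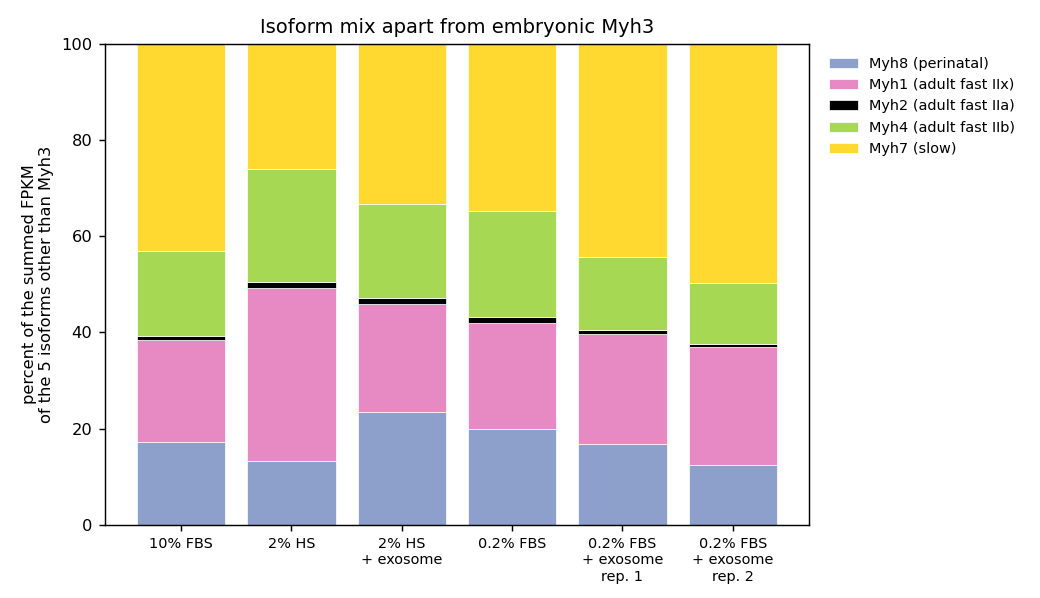
Percent of the summed FPKM of the 5 isoforms other than Myh3 in each library, with 1 stacked bar per library that adds up to 100. Slow Myh7 (yellow) takes 26.0% in 2% HS and 49.8% in replicate 2 of 0.2% FBS + exosome, and Myh1 (pink) takes its largest share, 35.9%, in 2% HS.

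The isoforms were compared with each other and with all other genes by their profile, as the root-mean-square difference of the mean-centred log2(FPKM + 1) over the 6 libraries, which depends on the size of the changes as well as on their order. These are descriptions without a test. Among the isoforms Myh1 and Myh3 were the closest pair by this measure (0.19) and Myh4 and Myh7 the farthest (0.54). The genes nearest to Myh1 were Tnni1 (0.10), Myl1 (0.11) and Mylpf (0.12), a slow troponin I and fast myosin light chains. Nearest to Myh3 were Cldn2 (0.06), which codes for a claudin, Trim72 (0.10), which codes for a membrane repair protein, and Itgb1bp2 (0.11), which codes for melusin. Nearest to Myh7 was Myh6 (0.10), the cardiac gene with which it shares stretches, and Kcnk13 (0.15) and Limch1 (0.18) followed. Myh6 stood at 18.1% to 21.1% of the Myh7 level in every library. Nearest to Myh4 were Tnnc1 (0.17), the slow and cardiac troponin C, Krt80 (0.17) and Itgb1bp2 (0.18). Nearest to Myh2 were Actn3 (0.06), the α-actinin of fast fibres, Synpo2 (0.06) and Itgb6 (0.07), on a scale that its low level compresses. Myh8 had no gene as near: Rap1gap2 (0.23), Sox11 (0.24) and Dclk1 (0.26) came first.

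The proteins that work with myosin heavy chains were counted as whole lists. Of 6 skeletal and cardiac myosin light chains 5 were tested, and 4 passed the limit downward in each exosome library in 0.2% FBS, beside 1.61% of all genes. These were Myl4 (−1.99), the embryonic and atrial chain, Myl6b (−1.94), an alkali chain, and the fast chains Mylpf (−1.75) and Myl1 (−1.61). The median was −1.75, near that of the isoforms. In limma only Myl6b of these was called (Benjamini-Hochberg adjusted p = 0.00764), beside 4.32% of all genes called lower. Slow Myl2 stood apart by medium, at 4.35 FPKM in 2% HS and 4.82 in 2% HS + exosome, and at 0.131 to 0.501 in the other 4 libraries.

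Of 10 myosin-binding and thick filament genes 8 were tested. Mybpc1, Mybph (−2.00), Myom2 and Myom3 passed the limit downward (1.61% of all genes did), and the median was −1.29. In limma 7 were called lower (4.32% of all genes were), Mylk4, Myom1 and Ttn besides these 4. Myosin-binding protein H (Mybph) stood at 789 FPKM in 0.2% FBS and at 273 and 141 with exosomes. Of 9 chaperones and assembly factors 8 were tested, and Smyd1 (−1.36), a methyltransferase that works with myosin chaperones, Murc (−2.11), a cavin of muscle, and Trim54 (−1.24), a RING protein of the sarcomere, passed the limit (median −0.81), and in limma 4 were called lower, these 3 and Trim63, beside the same shares of all genes. Of the 8 other myosin heavy chain genes only 3 reached 1 FPKM on average. Cardiac Myh6 was lower (−1.15, limma with Benjamini-Hochberg adjustment, adjusted p = 0.0124), with no gene of this list past the limit in each library, and Myh9, which codes for a non-muscle myosin, stood at 0.36.

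Among 23 regulators of muscle and fibre type genes 18 were tested, and the direction was mixed. Mef2c (−1.56), whose protein binds the MEF2 box, Tbx15 (−1.32) and Tead4 (−1.32) passed the limit downward, beside 1.61% of all genes, and the median was −0.20. In limma 4 were lower, these 3 and Vgll2, and Eya1 (0.98), Myf5 (0.96) and Six4 (0.86) were among those higher, beside 4.32% of all genes lower and 8.20% higher. Mef2c stood at 13.4 FPKM in 0.2% FBS and at 4.39 and 3.48 with exosomes, and in 2% HS it stood at 8.20 without and 12.2 with exosomes. Myog stood at 564 FPKM in 2% HS, 720 in 2% HS + exosome, 663 in 0.2% FBS, and 350 and 401 in 0.2% FBS + exosome, and it did not pass in limma (Benjamini-Hochberg adjusted p = 0.120). In 2% HS no gene of the 5 lists passed the limit with exosomes, and few of all genes did (0.298% lower and 0.354% higher). As for the isoforms, none of the limma calls in these lists held without the filter at 1 FPKM.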

How the data were processed

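The 6 libraries were made as stranded mRNA libraries and read as 75-base single-end reads. Per the submitters' processing notes the reads were trimmed with cutadapt 1.9.1 and mapped to mm10 with TopHat2 2.1.0, and the authors deposited FPKM values from Cufflinks, all libraries in 1 table. FPKM divides by transcript length and depth, and the table holds no counts, so depth was taken as the read number that turned most low values of single-transcript genes longer than 1000 bases into whole reads (tolerance 0.1, fragments of 200 bases), and no counting interval was computed.

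Groups came from the sample labels. The members, gene lists and tests were chosen with earlier results of these data known. The named genes are the 6 isoforms, genes of 5 lists and the 3 nearest genes by profile, but not every gene of the lists is reported here. Differences were taken of log2(FPKM + 1) against the study's limit of 1 in either direction, in each exosome library where there are 2. limma 3.58.1 (R 4.3.3) was run with a mean-variance trend and Benjamini-Hochberg adjustment over the 10731 genes averaging 1 FPKM or more. Alternatives were a pseudocount of 0.1, a floor at 1 FPKM, upper-quartile scaling, no filter, no trend, leaving out each replicate, a replicate block and, added after seeing the data, division by Rpl13a.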

Additional observations from a re-analysis of the deposited data

Results flagged for a closer look

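The exosome effect differed between the media in sign or by test for several genes, each given as the log2 effect in 0.2% FBS minus that in 2% HS. Among the isoforms it was −3.24 for Myh8, −2.40 for Myh4 and −2.05 for Myh7, which passed in limma with Benjamini-Hochberg adjustment. It was −1.23 for Myh2, where both exosome libraries in 0.2% FBS were lower and the one in 2% HS was higher, a difference that was not tested. Lower in each exosome library in 0.2% FBS and higher in 2% HS, at any size, were 1293 of the 10731 genes tested. In the 5 lists of other genes it passed in limma for 3 of 8 chaperones and assembly factors (Murc −2.24, Smyd1 −1.58, Trim54 −1.47), 1 of 18 regulators (Mef2c −2.07), 1 of 3 other myosin heavy chains (Myh6 −1.78), 0 of 5 light chains and 0 of 8 thick filament genes, beside 0.867% of all genes. Among those that did not pass were Mybph (−2.35, limma Benjamini-Hochberg adjusted p = 0.101) and Myl4 (−2.27, limma adjusted p = 0.213). None of these calls held without the filter at 1 FPKM.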

How the results depend on the processing

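With a pseudocount of 0.1 more of all genes passed the limit. With exosomes in 0.2% FBS 193 were higher in place of 96. With exosomes in 2% HS 57 were lower and 69 higher in place of 32 and 38. In 0.2% FBS against 10% FBS 195 were lower in place of 74, and in 2% HS against 10% FBS 129 in place of 56. In 0.2% FBS + exosome against 10% FBS 24 were lower and 52 higher in place of 1 and 22. In 0.2% FBS against 2% HS 66 were lower and 60 higher in place of 32 and 25. Upper-quartile scaling gave 63 higher with exosomes in 0.2% FBS and 7 lower in 0.2% FBS + exosome against 10% FBS. Division by Rpl13a left 0 isoforms past the limit upward with exosomes in 2% HS in place of 1. Leaving out 1 replicate of 0.2% FBS + exosome gave 0 to 1 isoforms past the limit downward against 10% FBS, and shares of Myh3 in the summed FPKM of that condition of 91.8% to 93.3%. In limma 4 isoforms were called in 0.2% FBS, 5 when scaled or without the trend, and 0 without the filter or with a floor at 1 FPKM. For the difference between media 3 were called, 4 when scaled, and 0 without the filter, with the floor or without the trend. How many of all genes limma called when scaled, with the floor or without the trend was not counted. The isoform counts of those settings therefore have no share to set beside them. In 0.2% FBS + exosome Myh4 took 1.02% of the sum of all sarcomeric myosin heavy chains in place of 1.03% of the 6. Why the calls moved was not tested. With a pseudocount of 0.1, Myh2 also passed the limit in 0.2% FBS (1.75) and in 2% HS (1.34) against 10% FBS, which made 6 and 4 isoforms. In these comparisons 260 and 273 of all genes were then past the limit upward, in place of 192 and 192. No isoform change past a limit or threshold turned its direction. No number in the sample titles occurs in both media, and with them as a replicate block the common exosome effect called no isoform (limma, Benjamini-Hochberg adjusted p = 1.00 for each). The title number of replicate 2 of 0.2% FBS + exosome stands on that library alone, so the block takes it out of the estimate. The effects equal those without replicate 2, and the block is no separate check. Leaving out a replicate left no residual degrees of freedom for the fit with 1 mean per condition, so limma was not run on it there. With 1 library in 4 of the 5 conditions, most differences have no replicate check.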
